A study of Mus musculus with 8 samples.

Results

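A set of 9 genes associated with parvalbumin-expressing, fast-spiking interneurons were followed through RNA-Seq libraries of the dorsal and ventral medial entorhinal cortex (MEC) of the mouse. They are *Pvalb*, *Syt2*, *Cplx1*, *Kcnc1*, *Kcnc2*, *Kcnc4*, *Kcns3*, *Tac1* and *Esrrg*, 9 of the 38553 genes in the deposited table. The genes were matched by symbol and the rule uses no measured value, but the set was chosen with earlier results of these data known. RNA came from acute sagittal slices, 400 µm thick, of the right MEC of 13 male C57BL/6JolaHsd mice aged 8 weeks, with no genetic or drug manipulation in the labels. Dorsal and ventral tissue was pooled over 3 or 4 mice in each of 4 groups, which gave 4 dorsal and 4 ventral libraries. All pools thus hold whole tissue with every cell type of the slice, and p-values describe the spread between pools and not between single mice.

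Parvalbumin-expressing basket and chandelier cells inhibit the soma and the axon initial segment of principal neurons. They fire brief spikes at high rates because Kv3 potassium channels repolarize the membrane rapidly, and they release GABA with little delay through the fast calcium sensor synaptotagmin 2. In the MEC these cells are a major source of inhibition onto the stellate cells of layer II. Most of the 9 genes are also transcribed in other neurons, so that in bulk tissue fewer cells of a type and less RNA per cell cannot be told apart.

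Before the results, 1 property of the deposited table has to be given. The column headers D1, V1, D2, V2, D3, V3, D4 and V4 name another region than the one used here for 4 of the 8 libraries. The columns D1, V1, D2 and V2 were read as dorsal and D3, V3, D4 and V4 as ventral, because their means lay within 0.1% of the authors' first and second mean FPKM for 23004 of 23011 and 23051 of 23060 genes with a mean above 0. No label states this reading, it follows from equal values, and every direction below depends on it. Under the regions of the headers 1 gene of all those tested was called, 721 had an unadjusted p under 0.05 and none of the 9 genes was called (limma). Under the reading used here, 2190 of the 13674 genes tested had an unadjusted p under 0.05 (limma). With only the 4 libraries for which both readings give the same region, 2 in each region, no gene was called by limma and 1232 had an unadjusted p under 0.05. In those 4 libraries the log2 fold change, ventral minus dorsal, was -0.91 for *Pvalb*, -1.07 for *Syt2* and 0.74 for *Tac1*, the same directions as with all 8. The libraries held from 10780902 to 15359782 fragments assigned to genes.

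Levels are given as FPKM, the fragments of a gene scaled by its exon length and by the depth of the library, so that levels of different genes can be compared. Library values are listed in the order D1, V1, D2, V2 for dorsal and D3, V3, D4, V4 for ventral. A gene was called D>V or V>D when the adjusted p of limma, fitted over all 13674 genes tested, was under 0.05 and the mean FPKM of the regions differed by at least 1.2 times. By this rule 492 genes were called, 3.6% of those tested, with 294 D>V (2.15%) and 198 V>D (1.45%). With every library scaled to 1 total FPKM the split was 195 D>V and 201 V>D, and the calls of the 9 genes were those given next. All 9 genes were high enough to be tested. Of these, 2 were called D>V (*Pvalb* and *Syt2*), 1 was called V>D (*Tac1*) and 6 were not called. In FPKM the libraries of the regions did not overlap for 5 of the 9 genes, compared with 11.1% of all genes tested. *Kcnc1* is among the 5, but its regions overlapped in fragments scaled to library depth. Over the 9 genes the median log2 ratio of mean FPKM, ventral over dorsal, was 0.02, and over all genes tested it was 0.00. By mean FPKM, 4 of the 9 were lower and 5 higher in ventral MEC.

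**Figure D1:**
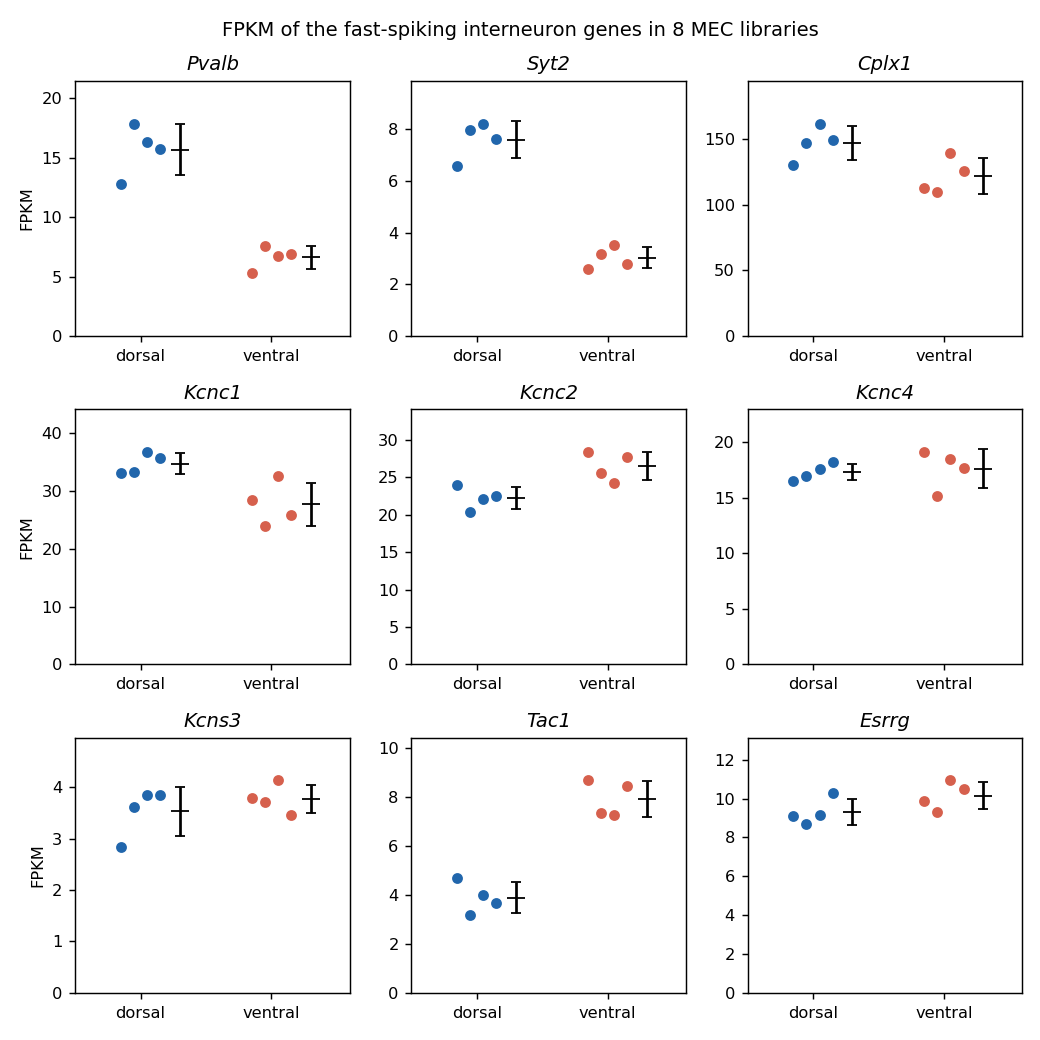
FPKM of the 9 genes (y axis, from 0) in the 4 dorsal (blue) and 4 ventral (red) libraries, 1 panel per gene. Points are libraries and the black mark with its bar is the mean ± SD; the regions are separate for Pvalb, Syt2, Kcnc1, Kcnc2 and Tac1 and overlap for the other 4 genes.

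The sequences upstream of the 3 called genes are shown because these genes differed most between the regions and in opposite directions. Each line gives the 250 bases before a RefSeq transcription start in GRCm38.p6, 5′ to 3′ on the strand of the gene. Capitals mark letters that match, on either strand, one of the motifs searched for. These were the oestrogen-related receptor element TCAAGGTCA and its shorter core AAGGTCA, which lies inside the full element, the cAMP response element TGACGTCA, the E-box CACGTG, the TATA box TATAAA and the GC box GGGCGG.
Pvalb, first start, chr15:78206401-78206650, minus strand: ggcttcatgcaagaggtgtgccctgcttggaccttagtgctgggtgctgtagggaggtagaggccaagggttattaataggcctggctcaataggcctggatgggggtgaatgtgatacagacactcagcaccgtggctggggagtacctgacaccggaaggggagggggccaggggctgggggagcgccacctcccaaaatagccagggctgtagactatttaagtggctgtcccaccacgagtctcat
Syt2, upstream start, chr1:134646362-134646611, plus strand: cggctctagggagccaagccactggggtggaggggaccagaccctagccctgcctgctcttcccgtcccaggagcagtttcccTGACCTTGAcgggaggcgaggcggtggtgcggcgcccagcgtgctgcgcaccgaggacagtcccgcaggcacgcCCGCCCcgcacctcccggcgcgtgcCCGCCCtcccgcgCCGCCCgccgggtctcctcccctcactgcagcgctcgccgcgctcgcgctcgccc
Syt2, downstream start, chr1:134709050-134709299, plus strand: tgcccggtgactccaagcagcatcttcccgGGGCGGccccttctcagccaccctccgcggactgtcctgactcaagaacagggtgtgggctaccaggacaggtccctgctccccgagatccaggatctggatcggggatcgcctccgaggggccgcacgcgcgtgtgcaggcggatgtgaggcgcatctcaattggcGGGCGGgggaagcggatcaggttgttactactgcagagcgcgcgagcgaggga
Tac1, only window shown, chr6:7554811-7555060, plus strand: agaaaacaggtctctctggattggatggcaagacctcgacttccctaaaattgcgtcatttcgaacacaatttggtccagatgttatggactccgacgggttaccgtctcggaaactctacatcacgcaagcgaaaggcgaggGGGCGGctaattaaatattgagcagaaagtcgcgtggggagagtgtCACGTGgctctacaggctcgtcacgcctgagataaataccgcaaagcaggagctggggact

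Neither this *Pvalb* window nor that of its other RefSeq start (chr15:78204238-78204487) held any of these letters, although 32.7% of the 32851 promoter windows of all genes held a GC box. The upstream *Syt2* window held the full oestrogen-related receptor element, which was present in 0.387% of all windows. It was the only one of the 18 windows of the 9 genes to hold it. *Esrrg*, which encodes a receptor of the family that binds this element, is among the 9 genes and was not called (limma, adjusted p = 0.524). Whether *Esrrg* acts on *Syt2* was not tested. The authors' gene model of *Syt2* begins at the downstream start (chr1:134709300-134753149), whose window held GC boxes only. The *Tac1* window held an E-box (6.02% of all windows) and a GC box. At least 1 GC box was found in 11 of the 18 windows of the 9 genes. These matches describe letters and not bound sites, and binding was not measured.

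*Pvalb* itself was higher in dorsal MEC. The gene (ENSMUSG00000005716, chr15:78191114-78206400, minus strand) encodes the cytosolic calcium buffer parvalbumin that names the cell class. Its FPKM was 12.8, 17.9, 16.3 and 15.7 in the dorsal libraries and 5.29, 7.57, 6.75 and 6.92 in the ventral libraries. Every dorsal library was thus above every ventral one, with a wide gap between the lowest dorsal and the highest ventral value. The mean was 15.7 ± 2.15 in dorsal and 6.63 ± 0.961 in ventral MEC (SD, n = 4 each), 2.36 times higher dorsally. The log2 fold change of limma, on the log2(FPKM + 1) scale and ventral minus dorsal, was -1.13 with an SE of 0.118 (adjusted p = 0.000942). On fragments, edgeR gave -1.25 (adjusted p = 1.90e-05). The level rests on 147 to 284 fragments in each dorsal and 73 to 99 in each ventral library.

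*Pvalb* was also set against other neuronal genes of the same library, which cancels any scaling of a whole library. The reference genes were *Gad1*, which makes GABA in interneurons of all classes, *Sst*, which encodes the peptide somatostatin of another interneuron class, and *Calb1*, which encodes the calcium buffer calbindin and in the MEC also marks principal cells of layer II. The log2 ratio *Pvalb*/*Gad1* averaged -1.97 ± 0.24 in dorsal and -3.06 ± 0.24 in ventral libraries, a difference of -1.09. *Pvalb*/*Sst* differed by -2.27 and *Pvalb*/*Calb1* by -1.99. *Sst* (109.5 FPKM in dorsal and 220.4 in ventral libraries) and *Calb1* (4.57 and 7.85 FPKM) were themselves called V>D. The regions did not overlap in any of the 3 ratios (two-sided exact permutation test, p = 0.0286 each, the smallest p that 4 against 4 libraries allow, and 0.0408 after adjustment over 10 ratios, of which 6 are reported here). For *Pvalb*/*Sst* and *Pvalb*/*Calb1* this outcome was fixed in advance. *Pvalb* and each of these reference genes were already separated between the regions, in opposite directions, so these tests add nothing to the single genes. The call of *Sst* was lost without the library headed V1, and that of *Calb1* in 5 of 8 fits that left out 1 library, namely those without D1, V1, D2, V2 or V4.

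**Figure D2:**
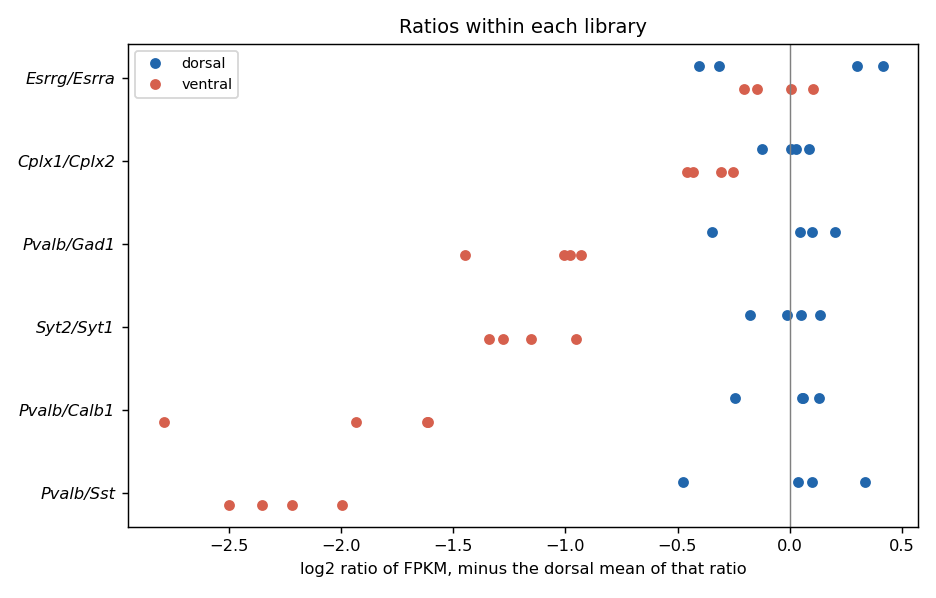
Log2 ratio of the FPKM of a gene to that of a reference gene in each library, minus the dorsal mean of that ratio (x axis), for 6 ratios (y axis). Points are the 4 dorsal (blue) and 4 ventral (red) libraries; the regions are separate for 5 of the 6 ratios, in which the ventral libraries are lower, and overlap for Esrrg/Esrra.

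Among the genes of the release machinery, *Syt2* (ENSMUSG00000026452, chr1:134646677-134762593, plus strand), the calcium sensor of fast transmitter release at fast-spiking terminals, was lower in ventral MEC. Its FPKM was 6.59, 7.97, 8.22 and 7.64 in the dorsal and 2.60, 3.16, 3.53 and 2.80 in the ventral libraries. The regions did not overlap, and the lowest dorsal library was above the highest ventral one by more than the range within either region. The mean was 7.60 ± 0.717 in dorsal and 3.02 ± 0.407 in ventral libraries, 2.52 times higher dorsally. The log2 fold change was -1.10 with an SE of 0.0971 (limma, adjusted p = 0.000408), and -1.32 on fragments (edgeR, adjusted p = 4.68e-07). Its paralogue *Syt1*, the sensor used by most forebrain synapses, was not called (log2 ratio -0.15, limma adjusted p = 0.262), and the log2 ratio *Syt2*/*Syt1* differed by -1.18 without overlap (exact permutation p = 0.0286, adjusted 0.0408).

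*Cplx1* (ENSMUSG00000033615, chr5:108518554-108550024, minus strand) encodes complexin 1, which binds the assembled SNARE complex and clamps and promotes fusion. It was the most abundant of the 9 genes, with 129.7, 146.8, 161.6 and 149.0 FPKM in the dorsal and 112.7, 109.7, 138.9 and 125.5 FPKM in the ventral libraries. The regions overlapped, since 1 ventral library was above the lowest dorsal one. The mean was 146.8 ± 13.1 in dorsal and 121.7 ± 13.4 in ventral libraries, and the log2 fold change of -0.27 (95% interval -0.48 to -0.06) did not pass over all genes (limma, adjusted p = 0.169). *Cplx1* was called by DESeq2 on fragments (adjusted p = 0.0400) and not by edgeR (adjusted p = 0.0714). Relative to *Cplx2*, the complexin of most glutamatergic neurons, its log2 ratio was 0.95 ± 0.09 in dorsal and 0.58 ± 0.10 in ventral libraries, without overlap (exact permutation p = 0.0286, adjusted 0.0408).

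A further 15 genes of the release machinery were tested, paralogues of *Syt2* and *Cplx1* included. Of these, 2 were called D>V and 1 V>D, with a median log2 ratio of -0.08. *Vamp1*, the vesicle SNARE of many fast terminals, was called D>V with a log2 ratio of -0.84 (limma, adjusted p = 0.00175). *Cacna1a*, the pore subunit of P/Q-type calcium channels, was called D>V with -0.31 (adjusted p = 0.024), a call that was lost when the library headed D1, V1, V2, D3 or D4 was left out. *Syt9* was called V>D at a low level (1.17 FPKM in dorsal libraries, log2 ratio 0.77, adjusted p = 0.0341), and its call was lost in 6 of 8 fits with 1 library left out, remaining without V3 or V4.

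The genes *Kcnc1*, *Kcnc2* and *Kcnc4* encode subunits of Kv3 channels, tetramers that activate at depolarized potentials and close rapidly. None of them was called, and their differences did not share 1 direction. *Kcnc1* (Kv3.1, ENSMUSG00000058975, chr7:46396497-46438704, plus strand) had 33.1, 33.2, 36.7 and 35.7 FPKM in dorsal and 28.4, 23.8, 32.6 and 25.9 FPKM in ventral libraries. All dorsal values were above the ventral ones, but the highest ventral library, D4, lay just under the lowest dorsal. The mean was 34.7 ± 1.81 in dorsal and 27.7 ± 3.76 in ventral libraries, and the log2 fold change was -0.32 (95% interval -0.53 to -0.12, limma, adjusted p = 0.0931). Without the library headed D4 it was called (log2 fold change -0.40, adjusted p = 0.0304).

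For *Kcnc1* the FPKM and the fragments gave different sizes. The log2 ratio of ventral to dorsal was -0.33 in FPKM and -0.06 in fragments scaled to library depth, and edgeR gave -0.09 (adjusted p = 0.569). The fragments per unit of FPKM, relative to the mean of the gene over all libraries, were 0.906 ± 0.058 in dorsal and 1.09 ± 0.075 in ventral libraries for *Kcnc1*, and 0.986 to 0.994 against 1.01 for the other 8 genes. FPKM depends on the transcript length that Cuffdiff 2 assigns, and the isoforms behind it were not analysed here.

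*Kcnc2* (Kv3.2, ENSMUSG00000035681, chr10:112271121-112467024, plus strand), which in cortex is transcribed in fast-spiking cells and in part of the somatostatin cells, had the opposite order. Its FPKM was 23.9, 20.4, 22.1 and 22.5 in dorsal and 28.4, 25.6, 24.3 and 27.7 in ventral libraries. The regions did not overlap, although the highest dorsal and the lowest ventral library nearly met. The mean was 22.2 ± 1.46 in dorsal and 26.5 ± 1.88 in ventral libraries, and the log2 fold change was 0.24 (95% interval 0.08 to 0.40, limma, adjusted p = 0.110). The means differed by 1.19 times in FPKM, under the minimum of 1.2. On fragments the adjusted p was 0.0260 by edgeR and 0.00741 by DESeq2. Their log2 fold changes, 0.261 and 0.259, were just under the minimum log2 ratio of 0.263, so neither called the gene.

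*Kcnc4* (Kv3.4, ENSMUSG00000027895, chr3:107438303-107459552, minus strand), the rapidly inactivating member of the family, had 16.5, 16.9, 17.6 and 18.2 FPKM in dorsal and 19.1, 15.2, 18.5 and 17.7 FPKM in ventral libraries. The ventral libraries lay on both sides of the dorsal ones. The log2 fold change was 0.02 (95% interval -0.15 to 0.19, limma, adjusted p = 0.944).

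*Kcns3* (Kv9.3, ENSMUSG00000043673, chr12:11090202-11151056, minus strand), an electrically silent subunit that joins Kv2 channels, had 2.83, 3.62, 3.84 and 3.84 FPKM in dorsal and 3.79, 3.72, 4.13 and 3.45 FPKM in ventral libraries. Apart from the lowest dorsal library, the dorsal values lay inside the ventral range, and the log2 fold change was 0.08 (95% interval -0.14 to 0.30, limma, adjusted p = 0.769). Of 6 further Kv2, silent-subunit and accessory genes of these channels that were tested, 1 was called, *Kcng1*, another silent subunit (V>D, log2 ratio 0.86, limma, adjusted p = 0.00408), and the median log2 ratio was 0.02.

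The peptide gene *Tac1* (ENSMUSG00000061762, chr6:7554879-7565834, plus strand), the precursor of substance P and neurokinin A, differed in the direction opposite to *Pvalb*. Its FPKM was 4.69, 3.19, 3.99 and 3.65 in dorsal and 8.67, 7.36, 7.25 and 8.44 in ventral libraries. Each ventral library was above each dorsal one. The mean was 3.88 ± 0.629 in dorsal and 7.93 ± 0.728 in ventral libraries, 2.04 times higher ventrally. The log2 fold change was 0.88 with an SE of 0.104 (limma, adjusted p = 0.00178), and 1.05 on fragments (edgeR, adjusted p = 0.000183). The counts were low, with 47 to 59 fragments in each dorsal and 98 to 144 in each ventral library. *Tac2*, the precursor of neurokinin B, was called V>D with a log2 ratio of 0.53 (limma, adjusted p = 0.0465), but not by edgeR (adjusted p = 0.0791) and in none of the 8 fits that left out 1 library.

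*Esrrg* (ENSMUSG00000026610, chr1:187608791-188214885, plus strand) encodes an orphan nuclear receptor that drives genes of mitochondrial metabolism. Its FPKM was 9.08, 8.71, 9.15 and 10.3 in dorsal and 9.87, 9.33, 10.9 and 10.5 in ventral libraries. The ranges overlapped over most of their width, and the log2 fold change was 0.11 (95% interval -0.05 to 0.28, limma, adjusted p = 0.524). Of 9 genes of related receptors, coactivators and targets, none was called by limma, with a median log2 ratio of 0.02. They included *Ppargc1a*, a coactivator enriched in parvalbumin cells, at 77.9 FPKM in dorsal and 80.5 FPKM in ventral libraries (adjusted p = 0.926). The log2 ratio of *Esrrg* to *Esrra* differed by -0.06 (exact permutation p = 0.8).

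**Figure D3:**
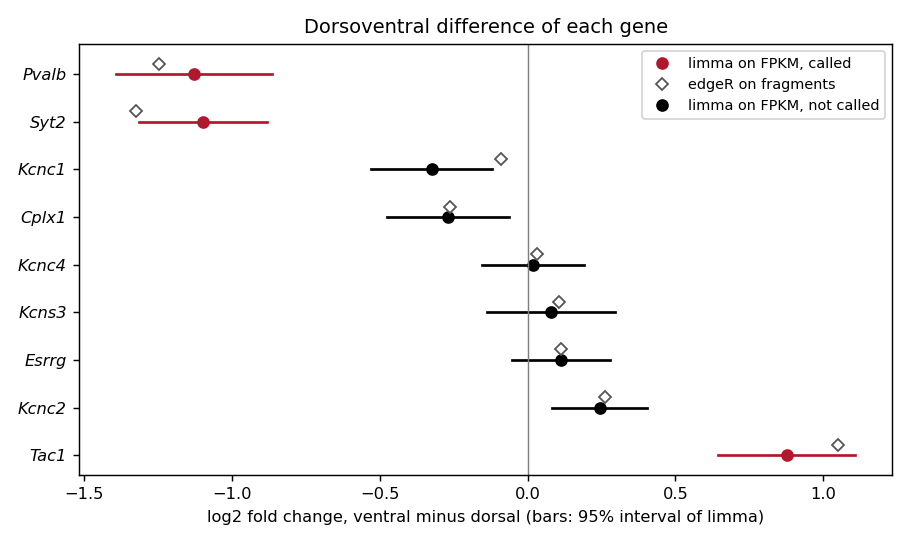
Log2 fold change, ventral minus dorsal (x axis), of the 9 genes (y axis): circles with bars are limma on log2(FPKM + 1) with its 95% interval, red where called, and open diamonds are edgeR on fragments. Pvalb (-1.13) and Syt2 (-1.10) lie far to the left and Tac1 (0.88) far to the right, and the diamond lies outside the interval of limma for Kcnc1 (-0.09) and, just, for Syt2 (-1.32). The 1 added to FPKM shrinks the limma values of genes with low FPKM. With 0.1 added instead, limma gave -1.31 for Syt2 and 1.02 for Tac1, near edgeR, and -0.33 for Kcnc1.

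In order of level, *Cplx1*, *Kcnc1*, *Kcnc2* and *Kcnc4* led in both regions. In dorsal libraries *Pvalb* followed, its wide range reaching into that of *Kcnc4*, then *Esrrg*, *Syt2*, *Tac1* and *Kcns3*, the last pair overlapping each other. In ventral libraries *Kcnc1* and *Kcnc2* overlapped, and *Esrrg* stood above *Tac1*. *Tac1* and *Pvalb* overlapped next to each other, as did *Kcns3* and *Syt2* at the end of the order. *Pvalb* thus went from the fifth to the seventh place and *Syt2* from the seventh to the ninth, while *Tac1* moved from the eighth to the sixth.

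A list of 23 other genes typical of parvalbumin cells, of which 21 were tested, also had calls in both directions, with 4 D>V, 3 V>D and a median log2 ratio of 0.05. Those D>V included *Vamp1* above, *Nefh*, a neurofilament of large-calibre axons (log2 ratio -0.81, limma, adjusted p = 0.0128), and *Kcna1*, an axonal Kv1 channel (-0.54, adjusted p = 0.00163). The 3 called V>D were *Nxph1*, which encodes a ligand of neurexins (0.44, adjusted p = 0.0115), *Cpne5* (0.47, adjusted p = 0.00756) and *Gpx3*, a secreted glutathione peroxidase (1.08, adjusted p = 0.0311). The call of *Gpx3* remained in only 2 of 8 fits that left out 1 library, those without D2 or V3. Of the calls named here, *Nefh*, *Kcna1*, *Vamp1* and *Nxph1* mark neurons other than parvalbumin cells as well.

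As a list, genes that GABAergic neurons have in common did not follow *Pvalb*. Of 8 tested, none was called by limma, and the median log2 ratio was 0.19. *Gad1* was at 60.9 FPKM in dorsal and 54.9 FPKM in ventral libraries (limma, adjusted p = 0.276), and *Gad2* at 62.2 and 68.5 FPKM (adjusted p = 0.302). For both genes the libraries of the regions did not overlap, with *Gad1* lower and *Gad2* higher in ventral MEC. *Slc32a1*, the vesicular GABA transporter, was at 7.42 and 7.50 FPKM (adjusted p = 0.968). The summed FPKM of the list was 211.3 to 216.9 in dorsal and 222.6 to 231.0 in ventral libraries.

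Markers of other interneuron classes had calls both ways. Of 7 somatostatin interneuron genes tested, *Npy* was called D>V (log2 ratio -1.02, limma, adjusted p = 0.00279) and *Sst* (1.01, adjusted p = 0.0147) and *Elfn1* (0.51, adjusted p = 0.0469) V>D, the call of *Elfn1* remaining in 1 of 8 fits with a library left out, the one without V2. Of 9 genes of VIP, CCK and neurogliaform cells, *Lamp5* was called D>V (-0.61, adjusted p = 0.00139) and *Calb2*, the calcium buffer calretinin, V>D (2.01, adjusted p = 0.000408), beside *Tac2* above. That list does not mark interneurons alone, since it holds *Reln*, which the authors describe as marking some excitatory cells of layer II. Of 10 other neuronal calcium-binding proteins, 1 was called D>V (*Hpca*, -0.31) and 3 V>D (*Calb1*, *Calb2* and *Hpcal4*, the last with 0.40). The call of *Hpca* remained in 1 of 8 fits that left out 1 library, and that of *Hpcal4* in 3 of 8. Of 8 glutamatergic neuron genes, 1 was called, *Slc17a6*, which encodes a vesicular glutamate transporter (-0.58, adjusted p = 0.00235).

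**Figure D4:**
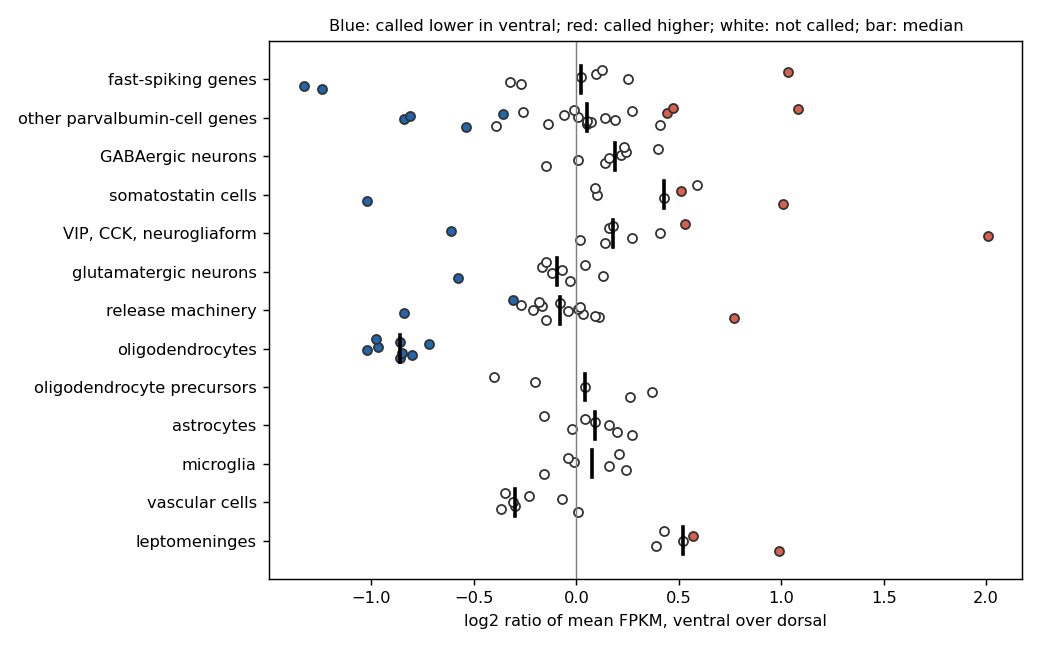
Log2 ratio of mean FPKM, ventral over dorsal (x axis), of each tested gene in the 9 fast-spiking genes and 12 lists (y axis). Points are genes, blue where called lower and red where called higher in ventral MEC, white where not called, and bars are medians; the 9 genes spread to both sides of 0 (median 0.02) while all 8 oligodendrocyte genes are blue (median -0.86).

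Markers of myelin moved with *Pvalb* and *Syt2*. All 8 oligodendrocyte genes were called D>V, with a median log2 ratio of -0.86 and a summed FPKM of 851 to 1126 in dorsal and 468 to 615 in ventral libraries. Examples were *Mobp* (-1.02), *Ermn* (-0.98), *Mag* (-0.97) and *Mbp* (-0.86). Oligodendrocyte precursor (5 tested), astrocyte (7), microglia (6) and vascular (7) genes had no call by limma. Of 5 leptomeningeal genes, 2 were called V>D, *Dcn* (0.99) and *Igf2* (0.57), and the summed level was 66.1 to 72.3 FPKM in dorsal and 106 to 121 FPKM in ventral libraries. Of 6 tested genes of a list drawn up for dentate gyrus, CA1 and subiculum, *Wfs1* was called D>V (-0.54) and *Nts* (2.43), *Fibcd1* (1.98) and *Fn1* (0.62) V>D, that of *Fn1* remaining only without V4. *Wfs1* and *Nts* are also transcribed in layers of the MEC itself, so the list does not mark hippocampal or subicular tissue alone. All 8 activity-regulated genes had a log2 ratio below 0 (median -0.48), of which *Bdnf* was called (-0.65, limma, adjusted p = 0.00687). The part of these cell types and of activity in the differences of the 9 genes was not tested.

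Likeness to *Pvalb* was described by Pearson's r of log2(FPKM + 1) over the 8 libraries among 8709 genes with a mean FPKM of at least 5. The 5 highest were *Serinc5* (0.993), *Aldh1a1* (0.993), *Bcas1* (0.991), *Prr18* (0.990) and *Nrip3* (0.989). All 5 were called D>V, so that r over both regions reflects the regional difference. *Syt2* stood at rank 14 with 0.983, and *Tac1* had -0.985. After each region was centred on its mean, the 5 highest were *Ogn* (0.984), *Galnt14* (0.976), *Il11ra1* (0.950), *Aldh1a1* (0.944) and *Serinc5* (0.942), and *Syt2* stood at rank 195 with 0.757. *Serinc5* and *Aldh1a1* were thus in the first 5 by both measures, which use the same 8 libraries. How high r would reach by chance among 8709 genes was not tested. The points of each r share their libraries and so their depth and dissection.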

How the data were processed

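RNA of dorsal and ventral MEC (RIN 7.1 to 8.5, 120 ng per library, amplified with the Ovation system) was sequenced by the authors, who used CASAVA 1.8, aligned paired reads with TopHat2 2.0.8 to GRCm38 with Ensembl release 73, and ran Cuffdiff 2. The FPKM values deposited by the authors are scaled between libraries and depend on the transcript length assigned to each gene. The authors also deposited an estimated count of fragments for each gene, condition and replicate, made by Cuffdiff 2, which was rounded for count tests. They were tied to columns by equal FPKM in all 38553 genes. Whether strand was used in counting is not given in the sources used here. Columns of the authors' own test (p-values and q-values of Cuffdiff 2) were not used, nor were 2 columns of scaled fragments.

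Genes that Cuffdiff 2 could test and whose FPKM averaged 1 or more were compared by limma 3.58.1 (R 4.3.3), with 1 added to each FPKM before log2, a variance prior that follows the mean, and Benjamini-Hochberg adjustment. The called genes have an adjusted p under 0.05 and a ratio of means of at least 1.2. edgeR 4.0.16 (quasi-likelihood test) and DESeq2 1.42.0 on fragments, other filters, scaling by 1 total FPKM, the regions of the headers and leaving out each library were alternatives. Ratios were tested by exact permutation over libraries, two-sided (SciPy 1.17.1). The fits were tested on simulated data. Named genes are the 9 genes, of each of 19 lists the called genes (up to 4 in each direction by log2 ratio) and its first or reference genes, and the 5 genes most like *Pvalb*. Some list genes and the ratios that use them are not reported here. The 9 genes and the lists were chosen with earlier results of these data known. Gene positions are those of GENCODE M21 (GRCm38), where no exon of the 9 genes overlapped another gene, and all 9 had a RefSeq start. Fragment numbers limit precision most for *Pvalb*, *Tac1* and *Kcns3*.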

Additional observations from a re-analysis of the deposited data

Results flagged for a closer look

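Among 30 groups of 4 libraries examined for a library far from the rest, 1 was flagged, and chance flags about 1 in 20 groups. In the ventral libraries the log2 ratio *Pvalb*/*Gad1* had 1 library at -3.42 while the others reached up to -2.90, and the gap to the nearest library was 0.851 of the range.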

How the results depend on the processing

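*Pvalb*, *Syt2* and *Tac1* were called by edgeR and DESeq2, under each filter and scaling and in all 8 fits that left out 1 library (log2 fold changes -1.22 to -1.04, -1.16 to -1.05 and 0.81 to 0.95). They were not called under the 2 readings that use the headers. With only the libraries on which both readings agree, which leaves 2 per region, 0 genes, 0 list genes and 0 of the 9 genes were called, at -0.91, -1.07 and 0.74 (adjusted p = 0.324, 0.304 and 0.331), and *Kcnc4* was at -0.054. With the regions of the headers 1 gene was called in all, 0 of the 9, at 0.22 for *Pvalb*, 0.025 for *Syt2*, -0.038 for *Kcnc2*, -0.073 for *Kcnc4*, -0.14 for *Tac1* and -0.008 for *Esrrg*. Of the list genes, *Vamp1* (0.084), *Nefh* (0.14), *Kcna1* (0.073), *Npy* (0.23), *Lamp5* (0.059), *Slc17a6* (0.003), *Cacna1a* (0.068), *Hpca* (0.022), *Mobp* (0.25), *Ermn* (0.25), *Mbp* (0.10) and *Wfs1* (0.079) then turned positive, and *Gpx3* (-0.21), *Cpne5* (-0.013), *Calb2* (-0.19), *Tac2* (-0.064), *Kcng1* (-0.12), *Syt9* (-0.15), *Calb1* (-0.058), *Hpcal4* (-0.10), *Dcn* (-0.19), *Fibcd1* (-0.25) and *Fn1* (-0.057) negative.

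Genes called D>V and V>D numbered 471 and 406 by edgeR, 520 and 455 with its own filter, and 488 and 406 by DESeq2, against 294 and 198 by limma. Scaling by 1 total FPKM gave 195 D>V. List genes called V>D fell from 16 to 10 with a mean FPKM of at least 5, since the other 6 have a lower mean and were then not tested, and to 8 with no filter, where the cause was not tested. Nor was it tested for the other counts above. Leaving out 1 library gave 157 to 341 genes D>V, 91 to 191 V>D and 8 to 14 list genes V>D. *Kcnc1* ranged from -0.40 to -0.26 and was called without D4. *Kcnc4* ranged from -0.02 to 0.085, below 0 without D1, D3 or D4, and *Esrrg*/*Esrra* from -0.19 to 0.08. *Cplx1* was called by DESeq2 at -0.265. The 6 ratios kept their direction when fragments replaced FPKM, a comparison added after seeing the data. Of 30 list genes named by the rule, 20 were called in all 8 fits that left out 1 library. No paired analysis was possible because the mouse pool behind each library column is not given by the labels used here.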
